A study of Arabidopsis thaliana with 12 samples.

Results

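Spots for 4 Arabidopsis thaliana genes of sugar phosphate transport, sucrose synthesis and starch synthesis were compared between the tpt1 mutant and wild type (WT). The spots were taken by their platform annotation, for a choice of genes made with earlier results of these data known. One spot is annotated to AT5G17630, the xylulose phosphate translocator, and one to ATSPS4F (locus AT4G10120), a sucrose phosphate synthase. The third is shared by APL3 (AT4G39210) and APL4 (AT2G21590), which encode large subunits of ADP-glucose pyrophosphorylase, and its signal cannot be divided between them. These are 3 of the 3439 spots on the array. Both groups share the ecotype Wassilevskija. By its label, tpt1 still carries out some transport of triose phosphate in its chloroplasts, at a strongly lowered rate. Each group holds 6 samples of total RNA, numbered 1 to 6. The tissue, the age and the growth conditions are not given in the sources used here. No label states that the samples are from different plants, so the p-values measure only the spread between these samples, which may be technical.

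In the light, carbon fixed in the chloroplast is exported as triose phosphate in exchange for phosphate, by a carrier of the inner envelope, TPT. In the cytosol it is made into sucrose, and sucrose phosphate synthase catalyses a controlled step of that path. Carbon kept in the chloroplast can be stored as starch, for which ADP-glucose pyrophosphorylase makes the glucosyl donor, and is exported as maltose and glucose when starch is broken down. The xylulose phosphate translocator belongs to the same family of envelope carriers as TPT. It exchanges pentose phosphate, triose phosphate and phosphate, and so links the pentose phosphate pathways of plastid and cytosol.

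None of the 3 spots passed the test between tpt1 and WT after the arrays were brought to a common distribution by quantile normalization. ATSPS4F had a log2 change (tpt1 over WT) of -0.10 and the spot of APL3 and APL4 one of 0.03, with standard errors of 0.13 and 0.22. AT5G17630 had a change of -1.26 with a standard error of 0.86, so that neither a rise nor a fall can be read from it. In the intensities as deposited, ATSPS4F and the spot of APL3 and APL4 were higher in tpt1 with each of the 6 sample numbers, on arrays where the median spot was also higher in tpt1.

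The arrays set how far these values can be read. Among spots above 0, the median log2 intensity per sample was -1.42 to -0.88 in tpt1 and -2.38 to -1.72 in WT. The median log2 change over the 2849 tested spots was 0.86 on the deposited scale and 0.08 after quantile normalization. Between 385 and 476 spots read 0 in a tpt1 sample, against 490 to 603 in a WT sample. In limma's moderated test on the normalized values, 364 of the tested spots (12.8%) passed an adjusted p of 0.05, and 0 of the 3 spots described here did. With the sample number as a block the count of passing spots was 906 (31.8%), and again 0 of the 3 passed. The samples with neighbouring numbers may be repeats of each other, and as a random block they left 122 spots (4.28%).

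The deposited intensities run from 0 to 100 in array units, and each spot is compared only with itself. AT5G17630 read 0.0574, 0.0701, 0, 0.0291, 0.0210 and 0.162 in tpt1 samples 1 to 6, against 0.0987, 0, 0.152, 0.166, 0.00676 and 0.0503 in WT samples 1 to 6. The groups overlapped over nearly their whole range. The lowest readings (0) came from tpt1 3 and WT 2, and the highest from tpt1 6 and WT 4. The mean was 0.0566 ± 0.0575 in tpt1 and 0.0789 ± 0.0715 in WT (SD, n = 6 each, readings at 0 included), a spread about as large as the mean in both. A two-sided exact permutation test of that difference gave p = 0.558.

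ATSPS4F read 1.95, 1.42, 1.63, 1.75, 1.54 and 1.64 in tpt1 samples 1 to 6, against 1.51, 1.297, 1.34, 1.44, 1.37 and 1.49 in WT samples 1 to 6. The groups overlapped through a single tpt1 sample, tpt1 2, which lay below WT 1, WT 4 and WT 6. Of the 36 possible pairs of a tpt1 with a WT sample, tpt1 was higher in 33. The mean was 1.66 ± 0.183 in tpt1 and 1.41 ± 0.0868 in WT (SD, n = 6 each), a ratio of 1.17.

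The spot of APL3 and APL4 read 0.574, 0.672, 0.578, 0.385, 0.623 and 0.590 in tpt1 samples 1 to 6, against 0.386, 0.246, 0.519, 0.287, 0.270 and 0.216 in WT samples 1 to 6. Here tpt1 4 lay below WT 1, by a small margin, and below WT 3, the highest of the WT samples. In 34 of 36 pairs tpt1 was higher. The mean was 0.570 ± 0.0979 in tpt1 and 0.321 ± 0.113 in WT (SD, n = 6 each), a ratio of 1.78.

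**Figure D1:**
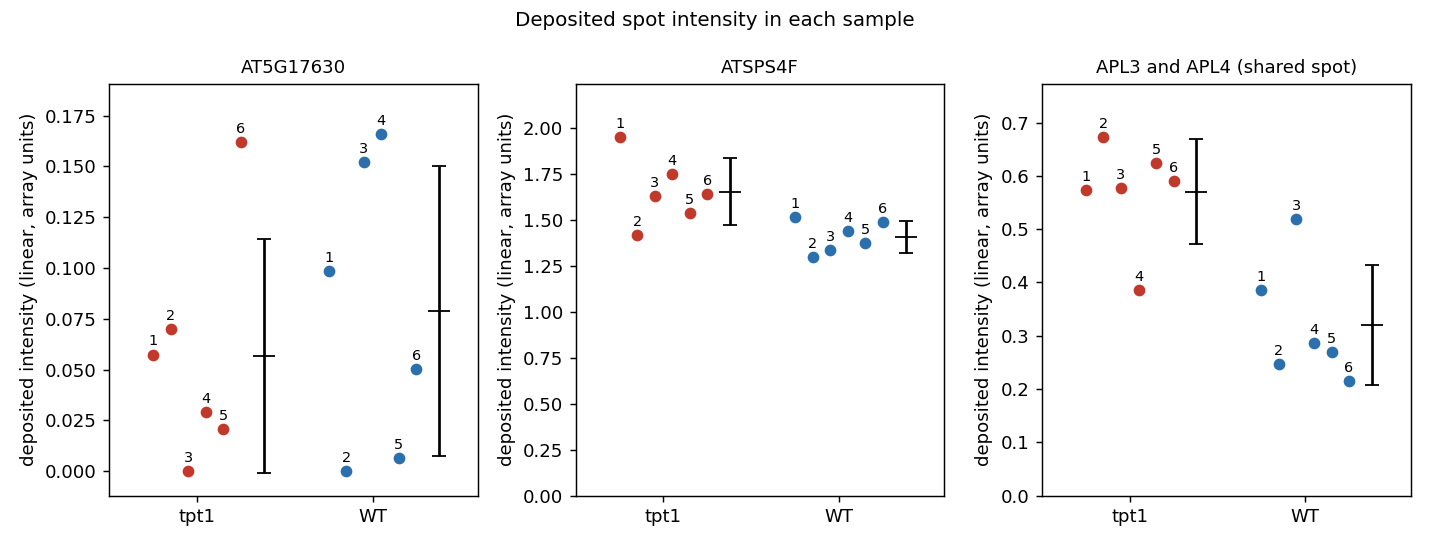
Deposited intensity (linear, array units) of the AT5G17630 spot, the ATSPS4F spot and the spot shared by APL3 and APL4, with 1 point per sample labelled by its number, tpt1 left of WT, and bars for the mean and SD of 6 samples. The AT5G17630 groups lie over each other between 0 and 0.166, while for the other spots 33 and 34 of 36 pairs have the higher value in tpt1.

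The first comparison concerned the xylulose phosphate translocator, the 1 carrier of the TPT family with a spot of its own. AT5G17630 was dim. Among all spots of the same sample its reading lay at percentile 6.94 to 31.8 in tpt1 and at percentile 7.14 to 43.6 in WT. Readings at 0 were counted as well. AT5G17630 read 0 in 1 of 6 tpt1 samples and 1 of 6 WT samples (two-sided Fisher's exact test, p = 1). The ATSPS4F spot and the spot of APL3 and APL4 read above 0 in all 12 samples. Over the array 976 spots read 0 in some samples and not in others, 230 of them more often in tpt1 and 598 more often in WT. Fisher's exact test called 0 of these (0%) after Benjamini-Hochberg adjustment and 16 at an unadjusted p under 0.05. With 6 samples per group, no p is small enough for a lone spot to pass that adjustment. The count of 0 is thus no result about the spots.

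After quantile normalization, with readings at 0 left out, AT5G17630 stood at a log2 intensity of -4.80 ± 1.20 in tpt1 and -3.54 ± 1.74 in WT (SD, n = 5 each). The log2 change was -1.26 (SE 0.86, 95% interval -3.15 to 0.62, limma adjusted p = 0.403), which spans a fold of 0.113 to 1.54. The SE was larger than that of 97.0% of tested spots. Its value depends on which numbers are compared. In numbers 1 and 4, where both samples read above 0, the normalized log2 difference was -2.16 and -3.19, and in numbers 5 and 6 it was 1.04 and 0.60. Leaving out numbers 5 and 6 of both groups gave -2.58 (adjusted p = 0.0129; 7.27% of tested spots were called lower in that fit). Without WT 5 alone the change was -2.02 (95% interval -3.42 to -0.62, limma adjusted p = 0.0658). With array weights it was -2.05 (95% interval -3.51 to -0.58, limma adjusted p = 0.0567). Leaving out numbers 3 and 4 of both groups gave -0.29 (adjusted p = 0.925). With readings at 0 kept by a pseudocount of 0.1 the change was -0.62 (adjusted p = 0.233), and on the deposited scale it was -0.22 (adjusted p = 0.847). In these bulk samples fewer cells that express a gene and less of its RNA per cell cannot be told apart.

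**Figure D2:**
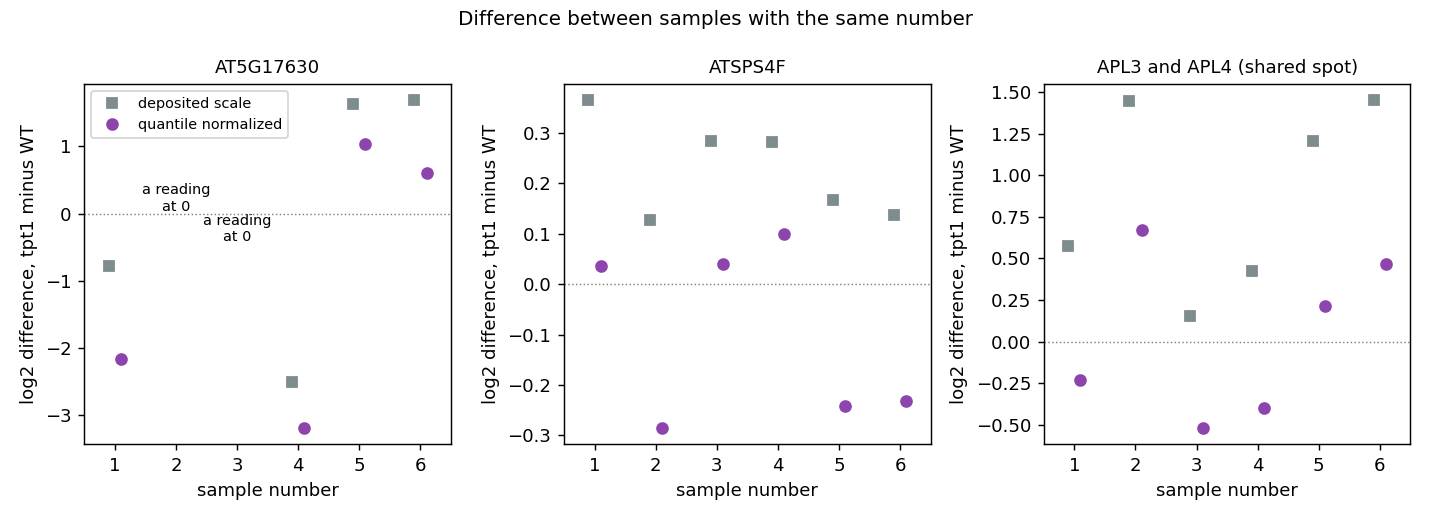
Log2 difference between the tpt1 and the WT sample of the same number (y axis) by sample number (x axis), on the deposited scale (squares) and after quantile normalization (circles). AT5G17630 has no log2 difference in numbers 2 and 3, where 1 sample read 0, and runs from -3.19 to 1.04 in the others after normalization; the other spots are above 0 in all 6 numbers on the deposited scale and in 3 of 6 after normalization.

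The second comparison concerned sucrose synthesis, a main use of exported triose phosphate. ATSPS4F, one of the sucrose phosphate synthases of Arabidopsis leaves, had an SE smaller than that of most tested spots (3.23% had a smaller one). Within the brightest of 4 equal classes of tested spots (mean log2 deposited intensity -0.71 to 6.55), 11.9% had a smaller SE than ATSPS4F. Its normalized log2 intensity was 0.55 ± 0.21 in tpt1 and 0.65 ± 0.18 in WT (SD, n = 6 each). The log2 change was -0.10 (SE 0.13, 95% interval -0.38 to 0.18, limma adjusted p = 0.695), a fold between 0.769 and 1.14. Normalized differences by number were between -0.28 and 0.10, with tpt1 higher in 3 of 6.

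On the deposited scale the log2 change of ATSPS4F was 0.23 (95% interval 0.0042 to 0.45, limma adjusted p = 0.0815), and the sample number as a block brought it past the threshold (adjusted p = 0.0142). On that scale 46.4% of tested spots were called higher in tpt1, and 71.2% with the block. In an exact permutation test of the deposited intensity, p was 0.0108 over all 12 samples and 0.03125 when groups were exchanged only within numbers, the smallest p that 6 pairs allow. An exact rank-sum test with readings at 0 kept passed as higher in tpt1 (adjusted p = 0.0398), a call made for 36.1% of the 3359 spots in that test. Arrays were also centred on their medians over the spots above 0 in all 12 samples. The sign then turned: the log2 change was -0.65 (adjusted p = 0.0169), a call made for 12.8% of tested spots in that direction. ATSPS4F belongs to the brightest of 4 equal classes of tested spots, whose median change was 0.47 on the deposited scale and -0.41 with median centring. The direction for ATSPS4F thus depended on the scaling of the arrays.

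**Figure D3:**
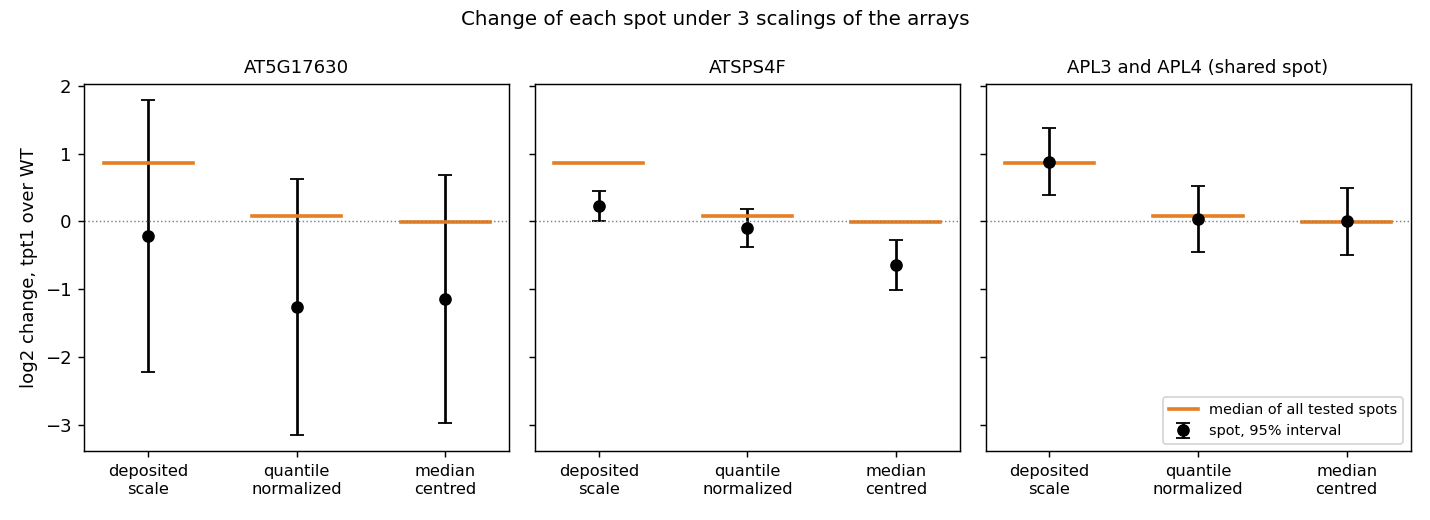
Log2 change of each spot (tpt1 over WT, y axis) under 3 scalings of the arrays (x axis), with limma's 95% interval, and the median change of all tested spots under the same scaling as a short line. The spot of APL3 and APL4 stays on that line, at 0.88, 0.03 and 0.0035, while ATSPS4F lies at 0.23, -0.10 and -0.65.

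The third comparison concerned the branch to starch. The spot of APL3 and APL4 reports the large, regulatory subunits of ADP-glucose pyrophosphorylase that are known to respond to sugar supply and to be prominent in non-photosynthetic tissue. Its normalized log2 intensity was -1.27 ± 0.36 in tpt1 and -1.3 ± 0.39 in WT (SD, n = 6 each). The log2 change was 0.03 (SE 0.22, 95% interval -0.45 to 0.51, limma adjusted p = 0.939), a fold between 0.733 and 1.43. With neighbouring numbers as a random block the interval widened to -0.74 to 0.81. For ATSPS4F that block gave an interval of -0.51 to 0.31, and for AT5G17630 one of -4.31 to 1.56 around a change of -1.37. By number the normalized difference ran from -0.52 (number 3) to 0.67 (number 2), with tpt1 higher in 3 of 6.

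On the deposited scale this spot passed the test as higher in tpt1, with a log2 change of 0.88 (SE 0.23, adjusted p = 0.00664). The exact permutation test of the deposited intensity gave p = 0.00649 over all samples and 0.03125 within numbers, again without a share over the array. The change was at the middle of the array, where 51.1% of tested spots had a lower one and the median was 0.86. With median centring it was 0.0035 (adjusted p = 0.993). So the higher deposited reading in tpt1 was of the size seen for the median spot.

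**Figure D4:**
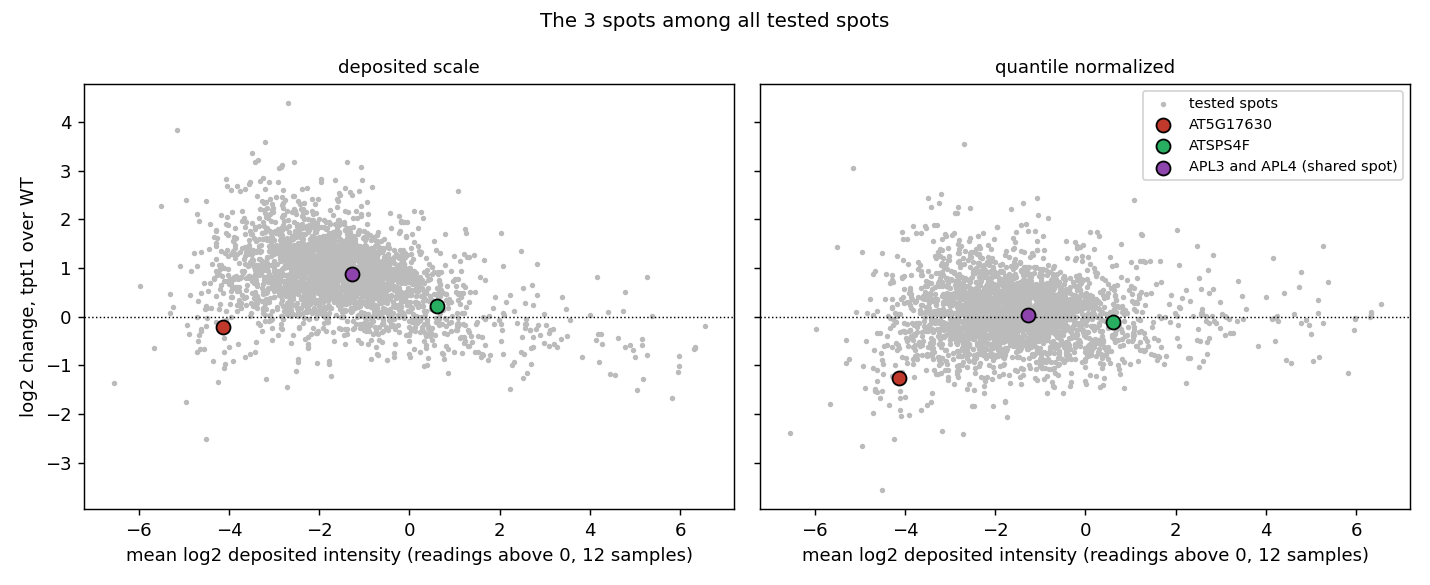
Log2 change (tpt1 over WT, y axis) against mean log2 deposited intensity (x axis) of all 2849 tested spots in grey, with the 3 spots in colour, on the deposited scale and after quantile normalization. The spot of APL3 and APL4 lies in the middle of the cloud in both, ATSPS4F toward its bright side and AT5G17630 low at its dim end, where changes scatter widely.

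The median log2 change of the 3 spots was -0.10, against 0.08 for all tested spots. With so few spots this median is the value of ATSPS4F alone, as it also is on the scales that follow. On the deposited scale the 2 medians were 0.23 and 0.86, and with median centring -0.65 and -0.01. AT5G17630 was the lowest of the 3 on each of these scales, with 2.04% of tested spots below it after quantile normalization and 7.51% below it on the deposited scale. Pearson's r of normalized values was 0.0030 between AT5G17630 and ATSPS4F (10 samples), 0.20 between AT5G17630 and the spot of APL3 and APL4 (10 samples) and -0.06 between ATSPS4F and that spot (12 samples).

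Few other genes of these pathways could be read. The 6 carbohydrate lists (envelope carriers of sugars and phosphate, sucrose synthesis, sucrose transport and cleavage, starch synthesis, starch degradation, and pentose phosphate metabolism) hold 113 genes. Of these, 4 had a spot of their own, and 1 further spot was shared within a list. These include the spots above, and the remaining genes were not analysed here. AT5G59250, known as the plastid sucrose carrier pSuT, read above 0 in 1 of 6 tpt1 samples and 3 of 6 WT samples, with highest readings of 0.160 in tpt1 and 0.201 in WT (Fisher's exact test, p = 0.545). AT1G12230, a transaldolase of the pentose phosphate pathway, read above 0 in 2 of 6 tpt1 samples and 1 of 6 WT samples, with highest readings of 0.280 in tpt1 and 0.283 in WT (Fisher's exact test, p = 1). Both had too few values for the test of levels. The 3 tested spots in these lists are thus the 3 described above, so they add no further genes. Of them 0 were called higher and 0 lower, against 12.8% of all tested spots called in either direction.

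No marker gene of seed, root or flower from the list had a spot of its own. Of the 10 markers of photosynthetic tissue 2 were tested: PRK, the phosphoribulokinase of carbon fixation, was called lower (-0.87, adjusted p = 0.0062), and the antenna gene LHB1B2 did not pass (-0.12, adjusted p = 0.743). In that fit 12.8% of tested spots were called in either direction. PRK was also called lower on the deposited scale (-0.47, limma adjusted p = 0.0477) and after median centring (-1.34, limma adjusted p = 0.000109). Without further normalization LHB1B2 was called lower, at -0.78 (limma adjusted p = 0.0166). On that scale 1396 of 2849 tested spots were called, 1323 of them higher in tpt1. After median centring it was also called lower, at -1.66 (limma adjusted p = 0.000294), a call made for 12.8% of tested spots in that direction. The brightest of the 4 classes of tested spots had a median change of -0.41 with median centring. PRK read 0.984 to 1.71 in tpt1 samples and 1.21 to 2.13 in WT samples. LHB1B2 read 17.7 to 45.4 in tpt1 samples and 48.6 to 53.4 in WT samples. Their part in the values of the 3 spots was not tested.

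The genes whose normalized pattern across samples was most like that of each spot were found by Pearson's r over spots with 1 gene and at least 8 shared samples. Each set of 3 is the top of 562 to 583 spots compared, a choice that by itself raises r. The points share the arrays and their normalization, so r is a description only. For AT5G17630 they were AT4G26370 and AT2G42490 (both r = 0.78, 10 samples) and AT1G27610 (r = 0.74, 10 samples). For ATSPS4F they were OTP70 (r = 0.82, 12 samples), a pentatricopeptide repeat protein, AT1G66090 (r = 0.81, 8 samples) and AT1G67820 (r = 0.76, 12 samples). For the spot of APL3 and APL4 they were FATB (r = 0.81, 10 samples), a plastid acyl-carrier-protein thioesterase, AT5G61470 (r = 0.75, 12 samples) and AT2G34050 (r = 0.75, 11 samples). Of these 9 genes 8 were tested, and none passed limma's test between tpt1 and WT (adjusted p between 0.216 and 0.972), against 12.8% of all tested spots. The genes were picked from the same values for likeness to spots that were not called, so this count is no separate result. AT1G66090 had too few values.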

How the data were processed

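The authors deposited spot intensities on a linear scale from 0 to 100. The steps before deposit (reading, background, scaling) are not given in the sources used here, so what a reading of 0 stands for is unknown. Values above 0 were taken as log2 and quantile normalized; readings at 0 were set as missing. Spots with at least 4 values above 0 in each group were tested, tpt1 against WT, with limma 3.58.1 in R 4.3.3 (eBayes with a trend), adjusted by Benjamini-Hochberg over all tested spots at 0.05. All 3 spots passed that filter. Exact permutation tests used deposited intensities with readings at 0 kept. Median centring brought each array to the same median log2 intensity over the spots above 0 in all samples.

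The 3 spots and the 8 gene lists were chosen with earlier results of these data known. Named are the 3 spots, list genes with a spot of their own, list spots whose genes all belong to 1 list, and the 3 genes most like each spot in pattern. Symbols follow TAIR10.1. The number of arrays limits the precision.

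Numbers were checked as pairs. After subtraction of group means, same-numbered samples correlated across 2383 spots at 0.47 to 0.61. For 12 of 12 samples the best match in the other group had the same number. The numbers therefore pair the samples, by the data and not by the labels. The pairing changed the call of none of the 3 spots after quantile normalization. Correlations between neighbours within a group ran from -0.06 to 0.75, and 0 pairs of samples held identical values. Alternatives were other scalings, filters, blocks, weights, a pseudocount of 0.1, a rank test and leaving out samples.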

Additional observations from a re-analysis of the deposited data

Results flagged for a closer look

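Normalized values were examined in 10 groups, the tpt1 and the WT samples of the 3 spots, of LHB1B2 and of PRK. In 3 of these groups a sample stood apart from the others of its group, where chance flags about 1 in 20 groups (0.5 of 10). For AT5G17630, tpt1 6 was high at a normalized log2 intensity of -2.68, the remaining tpt1 readings above 0 lying from -5.51 to -5.00. For the same spot WT 5 was low at -6.55 (deposited intensity 0.00676), the remaining WT readings above 0 lying from -3.28 to -2.26. For ATSPS4F, tpt1 2 was low at 0.14, with the remaining tpt1 samples from 0.57 to 0.69. In deposited intensity tpt1 2 was also the lowest tpt1 sample of ATSPS4F, at 1.42, and the highest of the spot of APL3 and APL4, at 0.672.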

How the results depend on the processing

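With 1 sample left out at a time, log2 changes ran from -2.02 to -0.94 for AT5G17630, from -0.14 to -0.02 for ATSPS4F and from -0.077 to 0.16 for the spot of APL3 and APL4, below 0 in 4 of 12 fits for that spot; the adjusted p stayed above the threshold in all of them, the lowest being 0.0658. Between 272 and 338 spots were called in these fits. The difference in the number of readings at 0 (tpt1 minus WT) ran from -1 to 1, and was 1 with readings up to 0.05 counted as 0.

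On the deposited scale 1396 spots were called, ATSPS4F turned to 0.23 and the spot of APL3 and APL4 passed at 0.88. With that scale and the replicate block 2164 were called, with AT5G17630 at 0.0075, ATSPS4F at 0.23 and the spot of APL3 and APL4 at 0.88. Median centring called ATSPS4F lower at -0.65, as it did with the replicate block, which called 998 spots. In the exact rank-sum test, with 1279 called, the difference between the shares of sample pairs in which tpt1 was higher and lower was 0.833 for ATSPS4F and 0.889 for the spot of APL3 and APL4. That spot also turned below 0 with the pseudocount (-0.018), with array weights (-0.081), without numbers 1 and 2 (-0.060, 180 spots called) and without 5 and 6 (-0.11), each far within its error. Without 5 and 6 AT5G17630 passed at -2.58. The replicate block called 906 spots and gave -0.93, -0.10 and 0.03 for the 3 spots in the order above; the random block called 122, and leaving out numbers 3 and 4 called 154. In fits without a set of numbers, 3 values above 0 per group were asked for. AT5G17630 could not be tested on spots above 0 in all samples. The combinations of scaling and block were chosen after seeing the data. The cause of these differences was not tested.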
